A study of Mus musculus with 12 samples.

Results

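The genes described here are 45 that run or restrain the cell division cycle, measured by bulk RNA sequencing in mouse peritoneal macrophages. They were chosen by gene symbol and comprise 2 inhibitors of cyclin-dependent kinases (CDKs), 6 D-type cyclins and CDKs, 16 genes of DNA replication and of entry into it, and 21 genes of G2 and mitosis. All 45 had exactly 1 row in the count table and passed the filter on low counts, and they made up 0.272% of the 16546 genes tested. The lowest count of any of them in any library was 11 and the highest was 15177.

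The 12 libraries fell into 4 groups of 3. KO R300 and WT R300 cells were cultured for 2 h together with antibody-coated platelets (R300, which binds CD42 on platelets), and KO blank and WT blank cells carry the treatment label Con, which does not say whether they met uncoated platelets or none. KO stands for the genotype label Mac-Ern1KO and WT for Ern1fl/fl, whose Ern1 alleles are floxed; Ern1 encodes IRE1α, a sensor of stress in the endoplasmic reticulum, and the Cre driver of the KO mice is not given in the labels. All groups came from male mice aged 8 weeks, per the labels, and the macrophages were collected 3 days after injection of 3% Brewer thioglycolate, an irritant that draws monocytes into the peritoneal cavity. Totals ran from 21765586 to 44273655 counts per library.

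Cells divide under the control of CDKs, each switched on by a cyclin partner and held back by inhibitor proteins. D-type cyclins respond to growth factors, E2F factors then turn on the replication genes, and a later wave of transcripts builds the spindle and the kinetochore. Most mature macrophages rest outside the cycle, although macrophages of the peritoneal cavity can divide in place.

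Several libraries stood apart within their groups. In 8 libraries Xist, made from the inactive X chromosome of female cells, was at 143 to 590 CPM (the count scaled to sequencing depth with TMM factors), although the labels give male mice. In the other 4 (KO R300 3, KO blank 3, WT R300 2 and WT blank 3) it was at 0 to 0.0742 CPM. Transcripts of 4 genes of the Y chromosome (Eif2s3y, Kdm5d, Ddx3y and Uty) summed to 42.6 to 162 CPM in the 8 and 205 to 224 CPM in the 4, so the 8 hold Xist and Y transcripts together, and the labels do not say whether animals were pooled. A pair of libraries in each R300 group was close to identical over all genes. The median chi-square per gene was 1.53 between KO R300 1 and 2 and 1.37 between WT R300 1 and 3. The other pairs within groups had 6.15 to 10.3. Over the 45 genes alone it was 6.58 and 6.51 for the same pairs, against 2.19 to 46.4 for the others. Near-identical therefore refers below to all genes, not to the 45. The libraries labelled KO did not have less Ern1 than those labelled WT, with 211 ± 32.4 CPM in KO R300, 140 ± 21.5 in KO blank, 182 ± 38.6 in WT R300 and 108 ± 12.2 in WT blank (SD, n = 3 each). A count over the whole gene does not check the loss of a few floxed exons, so KO and WT are used here as labels. The 8 macrophage markers summed to 10998 to 14685 CPM in the 6 KO libraries and 17269 to 19142 CPM in the 6 WT ones, without overlap, and none was at 0 in every library. Lyz2, the lysozyme gene, was at 6718 ± 632 CPM in KO blank and 13000 ± 465 in WT blank (SD, n = 3 each; log2 -0.95, edgeR adjusted p = 0.0779, or 0.0200 with a term for the libraries without Xist). Most of the gap in the sum lay in Lyz2. Of the 8 log2 differences (KO minus WT), 1 was above 0 and 7 below in blank cells (median -0.095). After R300, 4 were above 0 and 4 below (median 0.036). There mean Lyz2 was 7090 CPM in KO and 12525 in WT, while mean Itgam was 474 in KO and 313 in WT. The part of these markers in the KO and WT comparisons was not tested.

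Cdkn1a was the only one of the 45 genes that edgeR called in the 5 comparisons; it rose after coated platelets in KO cells. It encodes p21, the CDK inhibitor that p53 induces after DNA damage and that also rises when cells leave the cycle or differentiate. Libraries 1 to 3 held 480, 428 and 338 CPM in KO R300, against 185, 269 and 152 CPM in KO blank. The WT R300 level was 428, 378 and 401 CPM, against 202, 226 and 179 CPM in WT blank. Each of the 6 R300 libraries was above each of the 6 blank ones, in both genotypes and with or without Xist.

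In KO cells this was a 2.06-fold rise (log2 1.04, SE 0.20, edgeR quasi-likelihood test with Benjamini-Hochberg adjusted p = 0.0430), and in WT cells the 1.99-fold difference missed the threshold of 0.05 (log2 0.99, SE 0.20, edgeR adjusted p = 0.0644). The difference between both responses was 0.05 on the log2 scale (KO minus WT, SE 0.28, edgeR adjusted p = 1). Averaged over both genotypes, a contrast chosen after seeing the data, Cdkn1a rose by 1.02 (SE 0.14, edgeR adjusted p = 0.00279). The call in KO did not hold with 1 library of each near-identical pair (log2 1.02, adjusted p = 0.293) or when any 1 of 10 of the 12 libraries was left out (each but KO blank 2 and KO R300 3; adjusted p 0.00945 to 0.203 over all 12). The DESeq2 Wald test called Cdkn1a in both KO (adjusted p = 0.00029) and WT (0.000959). With the 8 libraries that hold Xist, the log2 change was 1.00 in KO (edgeR adjusted p = 0.0494) and 0.96 in WT (0.0636). Between the libraries without Xist, 1 per group, the R300 level was 2.23 times the blank level in KO and 2.12 times in WT.

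Between genotypes, the KO minus WT difference of Cdkn1a was 0.04 on the log2 scale in R300 cells (SE 0.20, edgeR adjusted p = 1.00) and -0.0016 in blank cells (SE 0.20, edgeR adjusted p = 1), and its sign in blank cells turned under several alternatives. Its gene lies on chromosome 17 (GRCm38, 29090976 to 29100727, plus strand). An antisense gene, AC167363.2, covers 7.68% of its exonic bases, and the counting may have mixed the reads of both, since the kit does not mark the strand. RefSeq lists 2 starts for Cdkn1a; the window of the upstream one is shown because it holds an element of p53, its known regulator. The window runs from 250 bases before the start to 50 after it, at chr17:29090729-29091028 on the plus strand of GRCm38.p6, with a p53 element in capitals.
Cdkn1a: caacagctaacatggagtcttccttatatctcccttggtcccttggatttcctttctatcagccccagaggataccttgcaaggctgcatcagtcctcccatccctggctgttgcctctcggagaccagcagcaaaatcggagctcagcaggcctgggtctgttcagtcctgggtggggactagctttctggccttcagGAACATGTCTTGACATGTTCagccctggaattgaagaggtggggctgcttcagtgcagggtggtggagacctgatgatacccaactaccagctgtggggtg
The p53 element was searched for by name, after this window had been read, as a pair of adjacent half-sites RRRCWWGYYY of 10 bases each. R stands for A or G, W for A or T and Y for C or T. The C and G of each half-site had to match, and at most 1 mismatch in the 20 bases was allowed at the other positions. The pattern reads the same on both strands. The match starts 51 bases before the upstream start, with 1 mismatch, and the window of the downstream start (chr17:29093519-29093818) holds none. Of 27025 genes with a promoter in the RefSeq table, 0.0814% held a match. Of the 15 genes with a window in a list of other p53 targets, 1 did.

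Of 19 other p53 targets, Mdm2, Ccng1 and Gadd45a among them, edgeR called 0 in any comparison. With R300, 7 in KO (8.78% of all genes) and 4 in WT (8.72%) had an unadjusted p under 0.05, and DESeq2 called 2 in KO (2.84% of all genes) and 0 in WT (2.33%). Their median log2 change was -0.28 in KO and -0.18 in WT, with 8 above 0 and 11 below in each, while the median of all genes tested was -0.0036 in KO and -0.0047 in WT. Plk3, a stress-induced kinase, was at 132, 115 and 65.2 CPM in KO R300, against 49.9, 54.7 and 49.2 CPM in KO blank, and at 102, 72.7 and 95.5 CPM in WT R300, against 48.7, 60.8 and 48.9 CPM in WT blank. The groups do not overlap in either genotype, and the edgeR adjusted p was 0.0770 in KO and 0.252 in WT. With a term for the libraries without Xist it was called in both (0.0105 and 0.0435).

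Cdkn1b encodes p27, the inhibitor that holds quiescent cells out of the cycle. It was at 40.8, 41.4 and 33.2 CPM in KO R300, against 33.5, 30.4 and 26.0 CPM in KO blank. In WT R300 it was at 32.6, 35.7 and 36.6 CPM, against 32.8, 39.0 and 26.3 CPM in WT blank. The KO groups overlap at 1 pair of libraries, and the WT blank libraries span the WT R300 ones. The KO difference of 0.36 on the log2 scale was not called (SE 0.15, edgeR adjusted p = 0.506).

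**Figure D1:**
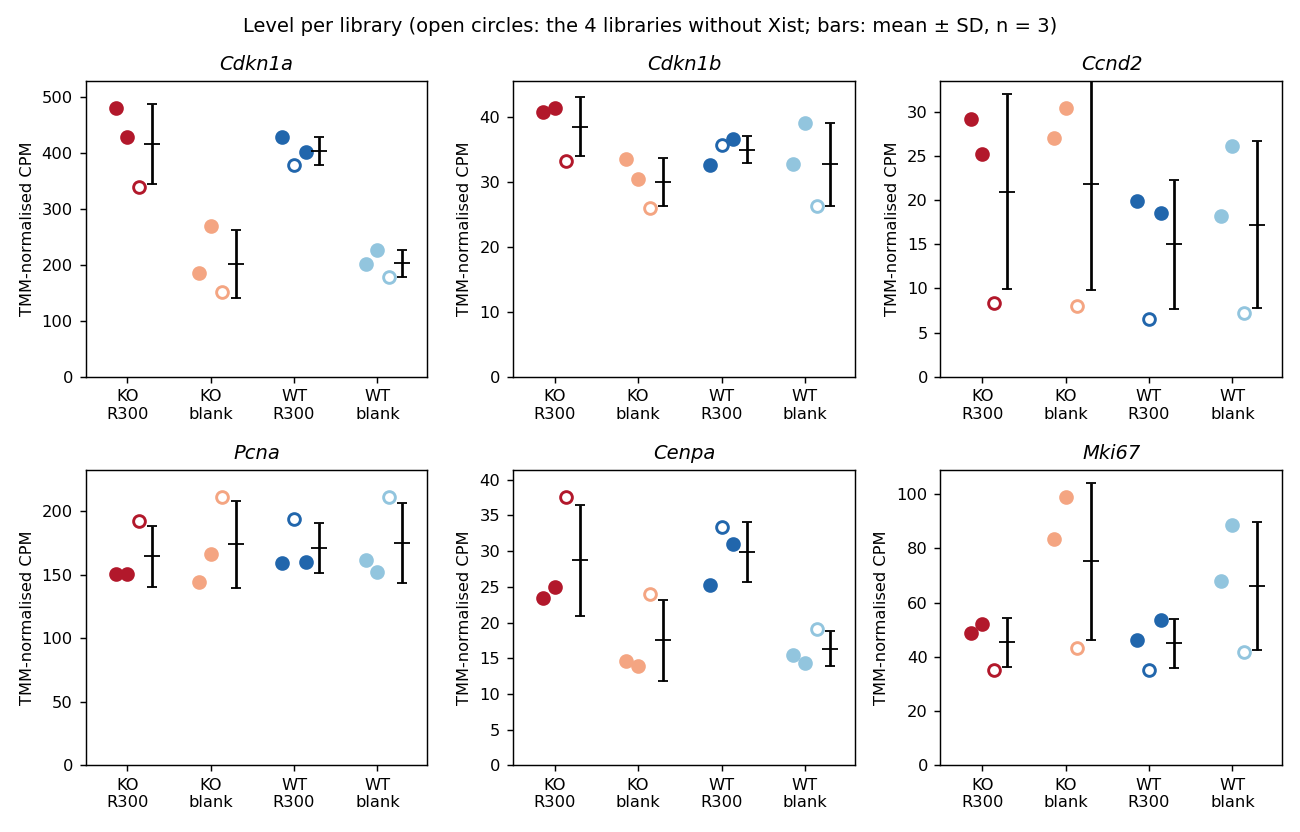
TMM-normalised CPM of 6 cell cycle genes in each library (points) with the mean ± SD of 3 libraries, for KO R300, KO blank, WT R300 and WT blank; open circles are the 4 libraries without Xist, and each axis starts at 0. All R300 points of Cdkn1a lie between 338 and 480 CPM and all blank points between 152 and 269 CPM, while Ccnd2 splits by Xist in every group. A split of all libraries by Xist, in either direction, was seen for 13.0% of all genes tested.

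Over all 45 genes, the median log2 response to coated platelets was small in KO against 0.25, and in WT about that large. The 0.25 is a standard error for a difference between groups of 3 libraries. It was taken from the spread, within groups, of the median over the 45 genes in each library. In KO, edgeR called 1 of 45, Cdkn1a, against 0.834% of all genes tested, with 4 under an unadjusted p of 0.05 (8.78% of all genes). In WT it called 0 of 45 against 0.623% of all genes, with 3 under an unadjusted p of 0.05 (8.72% of all genes), and DESeq2 called 2, Cdkn1a and Cenpa, against 2.33% of all genes with an adjusted p (in KO 1, Cdkn1a, against 2.84%). Groups that did not overlap were seen for 4 genes in KO (Ccne1, Ccne2, Cdkn1a and Mcm4, all higher) against 12.3% of all genes. In WT there were 3 (Cdkn1a and Cenpa higher, Mcm3 lower) against 12.8%. As shares of 45, these counts of groups without overlap lie under those of all genes. In KO 26 of 45 log2 changes were above 0, with a median of 0.05, and in WT 37 of 45, with a median of 0.26. The KO median was below 0 with library totals (-0.014), with 1 library of each near-identical pair (-0.094) and without KO R300 2 (-0.11).

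**Figure D2:**
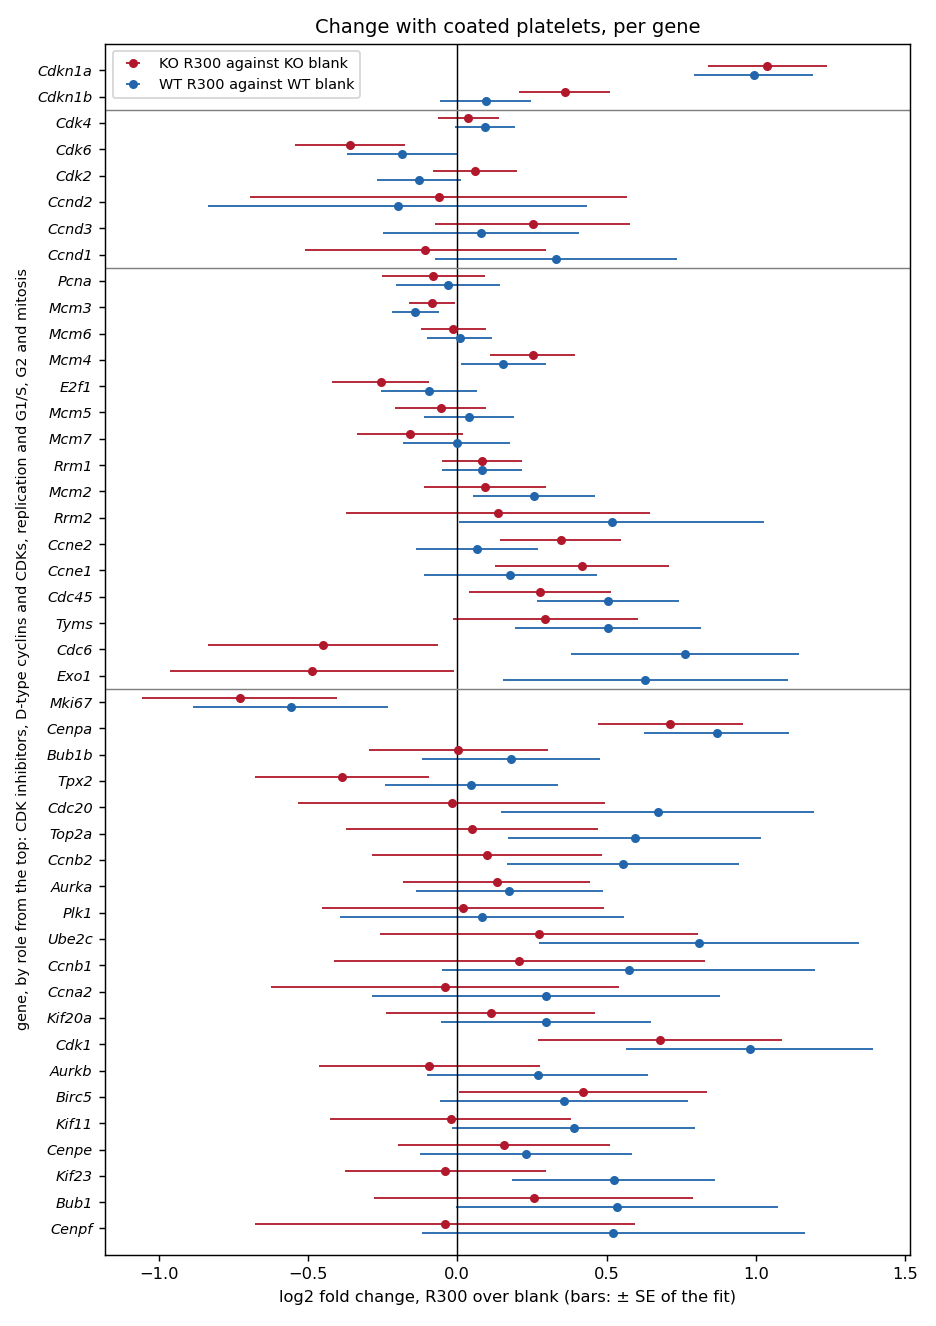
Log2 fold change of R300 over blank for each of the 45 genes, with the SE of the edgeR fit, in KO (red) and WT (blue), ordered by role. Cdkn1a and Cenpa lie above 0 and Mki67 below 0 in both genotypes, and 20 of the 21 G2 and mitosis genes are above 0 in WT, against 13 in KO.

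Among D-type cyclins and CDKs, which carry growth signals into G1, no gene was called in any comparison. Compared per kb of exon, Cdk4 had the highest level of the 6 (median of 12 libraries 23.3 CPM per kb), followed by Cdk6 (8.58) and Cdk2 (4.29). The length merges the exons of all annotated transcripts, so an order of genes per kb depends on the annotation. The D cyclins that switch on Cdk4 and Cdk6 were lower: Ccnd2 2.04, Ccnd3 1.82 and Ccnd1 1.56 CPM per kb, with ranges that overlap one another. Neighbours on the opposite strand cover 19.7% of the exonic bases of Cdk4 (Tspan31) and 23.4% of those of Ccnd1 (LTO1). Cdk4 was the most even of the 6, with a highest library 1.27 times the lowest, and Ccnd2 the least even, at 4.65 times.

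Ccnd2 levels split by Xist in every group. It was at 29.2, 25.2 and 8.39 CPM in KO R300, 27.1, 30.5 and 8.05 in KO blank, 19.9, 6.54 and 18.5 in WT R300 and 18.2, 26.1 and 7.27 in WT blank. The 4 libraries without Xist held 6.54 to 8.39 CPM and the other 8 held 18.2 to 30.5 CPM, with no overlap. Such a split, in either direction, was seen for 13.0% of all genes. What sets these libraries apart was not tested. Cdk2, the partner of cyclins E and A, did not overlap between genotypes after coated platelets, at 28.2, 28.3 and 26.7 CPM in KO R300 against 26.2, 24.8 and 25.8 in WT R300. It was the only one of the 45 that did so, against 7.91% of all genes, and the log2 difference of 0.12 was not called (SE 0.14, edgeR adjusted p = 1.00); Cdk2 was picked out after its values were seen.

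No replication gene was called in any comparison. Pcna, the sliding clamp of DNA polymerase, was the highest per kb (67.0 CPM per kb), followed by the helicase subunits Mcm3 (11.8), Mcm6 (8.5) and Mcm4 (7.55). E2f1, the activator of the replication genes, stood at 3.93 CPM per kb. The lowest were Cdc6, which loads the helicase at origins, at 0.219 CPM per kb, and Exo1, an exonuclease of DNA repair, at 0.100. Subunits of 1 helicase thus differed per kb of annotated exon, from 2.03 CPM per kb for Mcm2 to 11.8 for Mcm3. Mcm7 shares 12.6% of its exonic bases with Cops6, Ap4m1, Mir25 and Mir93.

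The abundant replication genes also varied least. The highest library was 1.25 times the lowest for Mcm3, 1.37 times for Mcm6, 1.36 times for Rrm1 and 1.47 times for Pcna. For Rrm2, the cell cycle regulated subunit of ribonucleotide reductase, it was 4.29 times, and for Exo1 4.23 times. Rrm2 was at 3.66, 5.35 and 2.38 CPM in KO R300, 3.44, 3.49 and 3.41 in KO blank, 4.71, 1.94 and 7.63 in WT R300 and 5.67, 2.60 and 1.78 in WT blank. The WT R300 libraries alone ran from 1.94 to 7.63 CPM. Pcna was higher in the 4 libraries without Xist (192 to 212 CPM) than in the 8 others (144 to 166 CPM). Values of 13.0% of all genes also did not overlap between these libraries, in either direction.

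Cdc6 had the lowest p of the 45, both between genotypes after R300 and for the difference of responses. It was at 0.621, 1.24 and 0.731 CPM in KO R300, against 1.61, 1.00 and 2.30 CPM in WT R300. KO blank libraries held 1.20, 1.25 and 1.09 CPM, against 1.25, 1.02 and 0.630 CPM in WT blank. The log2 difference between genotypes after R300 was -0.93 (SE 0.38, edgeR adjusted p = 1.00) and the difference between the R300 responses was -1.21 (SE 0.54, edgeR adjusted p = 1). The next in order of p were Mcm3 (0.12) and Exo1 (-0.68) after R300, and Exo1 (-1.12) and Cdkn1b (0.27) for the difference of responses. Cdc6 and Exo1 had as few as 17 and 11 counts in a library, among the lowest of the set. The SE did not follow the counts alone: after R300 it was larger for Ccnd2 (0.64), which had at least 189 counts in each library. The G1 cyclins Ccne1 and Ccne2, which take cells into replication, were separate between R300 and blank in KO: Ccne1 was at 2.24, 2.44 and 2.16 CPM in KO R300 against 1.91, 1.41 and 1.80 in KO blank, and Ccne2 at 3.28, 3.54 and 3.27 against 2.39, 2.70 and 2.84 CPM, and neither was called.

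**Figure D3:**
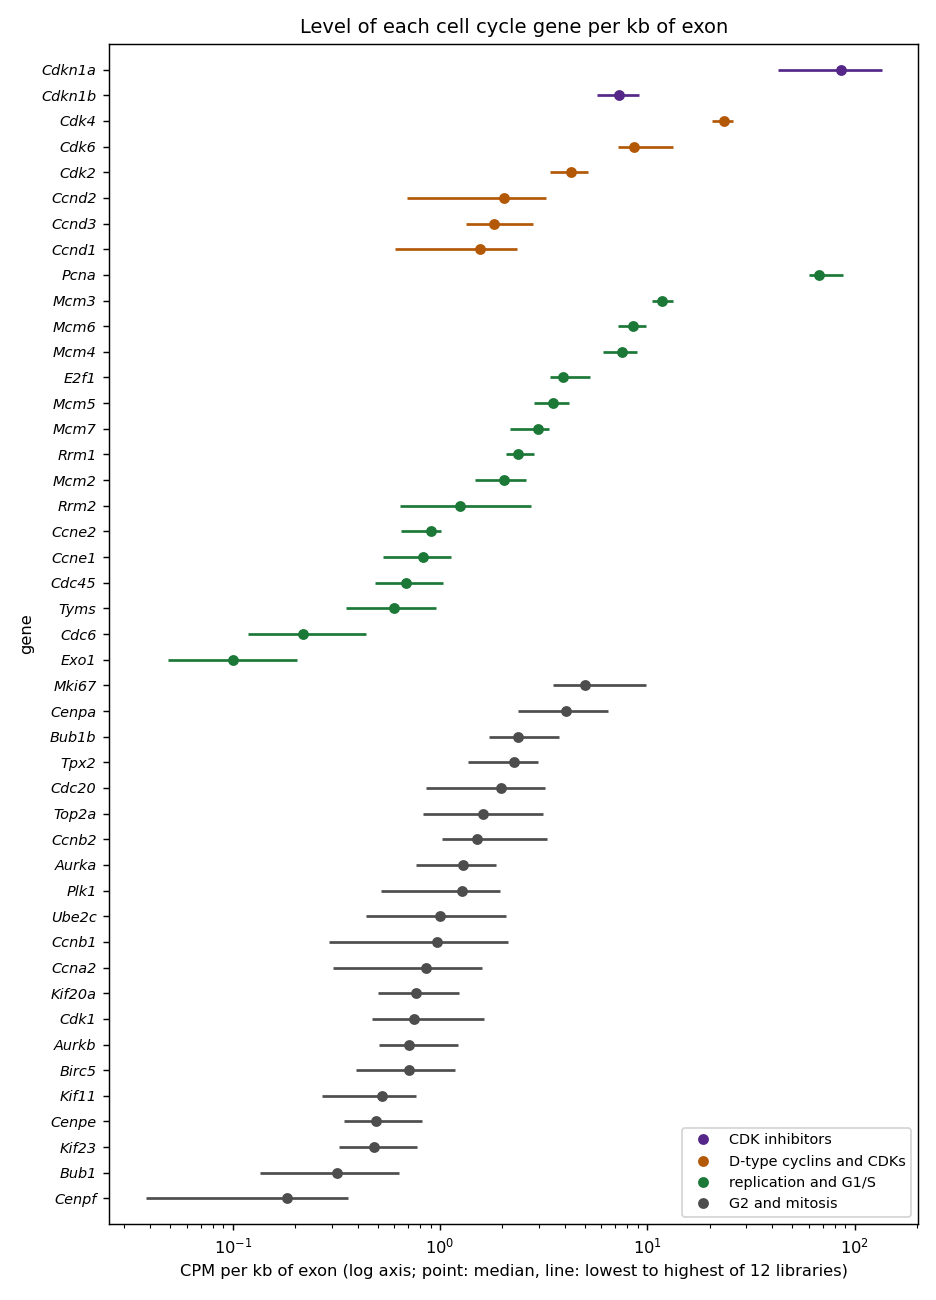
Level of each gene in CPM per kb of exon on a log axis, ordered by role; the point is the median and the line runs from the lowest to the highest of the 12 libraries. Cdkn1a (85.5) and Pcna (67.0) stand highest, and the G2 and mitosis genes lie between 0.182 (Cenpf) and 5.02 (Mki67).

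Most of the G2 and mitosis genes were low. Per kb of exon the 21 ran from 0.182 CPM for Cenpf to 5.02 CPM for Mki67, with Cenpa next to Mki67 at 4.05. Merged annotated exons cover 5860 bases for Cenpa and 10061 for Mki67, and their order depends on these lengths. edgeR called none of the 21 in the 5 comparisons, and DESeq2 called Cenpa in WT. Mki67 encodes Ki-67, the coat protein of mitotic chromosomes used as a marker of cycling cells, and Cenpa the histone variant that marks the centromere. In bulk samples, fewer dividing cells and less of a transcript per cell cannot be told apart.

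The promoters of these genes share 2 short elements that the choice of genes did not use. RefSeq windows of GRCm38.p6 were found for 36 of the 45 genes and for 17 of the 21 mitotic ones. The CHR element, bound by the LIN54 subunit of the DREAM and MuvB complexes, was searched for as TTTGAA or TTCGAA, and the CCAAT box, bound by NF-Y, as CCAAT, each on both strands. The CHR letters were in 14 of 17 mitotic windows (82.4%), against 21.7% of 27025 genes, and CCAAT in 16 of 17 (94.1%), against 41.1%. The replication genes had the CHR letters in 3 of 13 windows and the E2F letters, TTNGCGC or TTCCCGC on either strand, in 6 of 13 (46.2%), against 11.7% of all genes. Windows of 3 genes are shown, for Cenpa and Mki67, whose log2 changes had opposite signs, and for cyclin B2 as a textbook example of the arrangement; capitals mark CHR, CCAAT (read ATTGG on the other strand) and E2F letters, which do not overlap here. They are chr5:30666636-30666935 on the plus strand (Cenpa), chr7:135716330-135716629 on the minus strand (Mki67) and chr9:70421505-70421804 on the minus strand (Ccnb2).
Cenpa: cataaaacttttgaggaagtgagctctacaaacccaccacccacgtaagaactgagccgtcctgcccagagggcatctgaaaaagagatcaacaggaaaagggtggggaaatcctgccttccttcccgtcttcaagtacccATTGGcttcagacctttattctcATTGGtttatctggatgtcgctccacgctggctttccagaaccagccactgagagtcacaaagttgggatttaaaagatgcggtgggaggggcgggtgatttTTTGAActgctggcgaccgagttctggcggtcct
Mki67: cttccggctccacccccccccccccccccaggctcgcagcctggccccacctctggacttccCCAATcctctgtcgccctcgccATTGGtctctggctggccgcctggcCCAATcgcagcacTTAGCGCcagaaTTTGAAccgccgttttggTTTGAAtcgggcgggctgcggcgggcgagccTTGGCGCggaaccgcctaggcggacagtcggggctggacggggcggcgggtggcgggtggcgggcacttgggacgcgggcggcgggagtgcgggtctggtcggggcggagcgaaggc
Ccnb2: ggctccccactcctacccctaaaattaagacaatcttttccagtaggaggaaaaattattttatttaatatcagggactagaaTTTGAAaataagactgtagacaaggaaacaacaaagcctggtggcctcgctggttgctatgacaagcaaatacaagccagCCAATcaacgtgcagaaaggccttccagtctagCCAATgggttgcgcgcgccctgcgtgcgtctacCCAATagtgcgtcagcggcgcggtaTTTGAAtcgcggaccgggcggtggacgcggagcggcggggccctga
Cenpa has CHR letters 17 bases after its start and CCAAT boxes 109 and 86 bases before it. Mki67 has CHR letters 116 and 98 bases before the start, between E2F letters at 128 and 67 bases before it. Ccnb2 has CCAAT boxes at 87, 54 and 21 bases before the start and CHR letters 167 bases before it and 5 bases after it. All 3 windows thus hold both elements.

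Lin54 itself, the subunit that reads the CHR element, was higher in every R300 library than in every blank one. It was at 40.7, 40.5 and 83.7 CPM in KO R300, against 28.5, 27.5 and 26.2 CPM in KO blank. In WT R300 it was at 44.2, 89.3 and 39.1 CPM, against 26.0, 25.7 and 26.0 CPM in WT blank. The highest R300 value of each genotype was the library without Xist. Neither the log2 difference of 1.01 in KO (SE 0.33, edgeR adjusted p = 0.286) nor that of 1.15 in WT (SE 0.33, edgeR adjusted p = 0.239) was called, and Lin54 was picked out after its values were seen.

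Cenpa had the lowest p of the 21 mitotic genes in both R300 comparisons. It was at 23.4, 25.0 and 37.6 CPM in KO R300, against 14.6, 13.9 and 24.1 CPM in KO blank. The WT R300 level was 25.3, 33.4 and 31.0 CPM, against 15.5, 14.4 and 19.2 CPM in WT blank. The WT groups do not overlap, and the KO groups overlap through KO blank 3, the KO blank library without Xist. The log2 difference was 0.71 in KO (SE 0.24, edgeR adjusted p = 0.319) and 0.87 in WT (SE 0.24, edgeR adjusted p = 0.217). Averaged over both genotypes, the contrast chosen after seeing the data, Cenpa rose by 0.79 (SE 0.17, edgeR adjusted p = 0.0288), and Cdkn1a and Cenpa were the 2 of 45 called there, against 3.64% of all genes. With the term for the libraries without Xist the average had 3 of 45 called, Mki67 among them (log2 -0.60, edgeR adjusted p = 0.00648), against 9.02% of all genes. Between the libraries without Xist, R300 stood at 1.56 times blank in KO and 1.74 times in WT. With a term for those libraries edgeR called Cenpa in KO (adjusted p = 0.0110) and in WT (0.00450).

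Mki67 had a log2 change below 0 in both genotypes. It was at 48.7, 52.3 and 35.2 CPM in KO R300, against 83.4, 99.1 and 43.2 CPM in KO blank. For WT R300 it was 46.1, 35.3 and 53.5 CPM, against 68.1, 88.7 and 41.8 CPM in WT blank. The groups overlap only through the blank libraries without Xist, KO blank 3 and WT blank 3, which hold the lowest blank values. The log2 difference was -0.73 in KO (SE 0.33, edgeR adjusted p = 0.563) and -0.56 in WT (SE 0.33, edgeR adjusted p = 0.714), and Mki67 was singled out after its values were seen. With a term for the libraries without Xist, Mki67 fell by 0.67 in KO (edgeR adjusted p = 0.0413), 1 of 3 genes of the set called there against 2.72% of all genes; in WT 2 were called against 2.10%, Cdkn1a and Cenpa. Between the libraries without Xist the R300 level was 0.815 of blank in KO and 0.845 in WT.

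B cell markers had changes of the same sign as Mki67. The 8 B cell markers summed to 130, 129 and 110 CPM in KO R300, against 142, 273 and 143 CPM in KO blank, and to 84.2, 102 and 97.4 CPM in WT R300, against 85.6, 299 and 113 CPM in WT blank. The libraries highest in B cell markers, KO blank 2 and WT blank 2, also hold the highest Mki67 of their groups. The other blank libraries did not follow this order. KO blank 1 and 3 had 142 and 143 CPM of the markers, with Mki67 at 83.4 and 43.2 CPM. WT blank 1 had less of the markers than WT blank 3 (85.6 against 113 CPM) but more Mki67 (68.1 against 41.8 CPM). All 8 markers had a log2 change below 0 in both genotypes (median -0.72 in KO and -1.01 in WT), and edgeR called 0 of them (1 in KO and 3 in WT under an unadjusted p of 0.05; DESeq2 called 1 and 0). The 4 recruited monocyte markers summed to 211, 205 and 206 CPM in KO R300, against 359, 209 and 238 CPM in KO blank, and to 154, 189 and 152 CPM in WT R300, against 227, 359 and 200.3 CPM in WT blank. Of these 3 in KO and 4 in WT had a log2 change below 0 (median -0.79 and -1.02), edgeR called 0, and DESeq2 called 1 in each genotype, with 2 in each under an unadjusted p of 0.05. Medians were below 0 in both genotypes also for the markers of T and NK cells, neutrophils, dendritic cells and erythroid cells (-0.096 to -0.47 in KO and -0.17 to -0.98 in WT). They were above 0 for eosinophils and mast cells (0.66 in KO and 0.94 in WT), resident macrophages (0.41 and 0.16), macrophages (0.15 and 0.04) and platelets (0.25 and 0.17). Of the 8 macrophage markers, 5 were above 0 and 3 below in each genotype. Among them Cd14 rose by 1.67 in KO (edgeR adjusted p = 0.166) and 1.32 in WT (0.352). With the term for the libraries without Xist, edgeR called Cd14 in both (adjusted p = 0.00723 and 0.0277). All 6 eosinophil and mast cell markers tested were above 0 in each genotype. Of these, 2 in KO and 4 in WT had an unadjusted p under 0.05, edgeR called 0, and DESeq2 called 0 and 2. Among all genes, 8.78% in KO and 8.72% in WT had an unadjusted p under 0.05. Calls by edgeR covered 0.834% and 0.623% of all genes, and calls by DESeq2 2.84% and 2.33%. The part of these cells in the Mki67 difference was not tested.

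Mki67 and the other mitotic transcripts did not keep a fixed ratio. The level of Mki67 over the sum of the 20 other G2 and mitosis genes was 0.487, 0.387 and 0.3096 in KO R300, against 0.786, 0.997 and 0.425 in KO blank. In WT R300 it was 0.3599, 0.371 and 0.311, against 0.568, 1.15 and 0.486 in WT blank. The KO groups overlap between KO R300 1 and KO blank 3, a library without Xist, and in WT each R300 library was below each blank one. This ratio was formed after the values were seen and has no test.

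In WT, 20 of 21 mitotic genes had a log2 change above 0, with a median of 0.39, and in KO 13 of 21 had, with a median of 0.05; among all genes tested the share above 0 was 49.1% and 49.3%. The difference between the responses was below 0 for 20 of 21 (median -0.34), and among all genes tested 48.5% were above 0. Most of the 21 were high in WT R300 3 and low in WT R300 2, so they are not separate observations. For this difference edgeR called 0 of the 21 (0 of all 45, against 0% of all genes). Of the 45, 1, Cdc6, had an unadjusted p under 0.05, against 0.574%, and DESeq2 called 0, against 0%. Cdk1, the kinase that drives entry into mitosis, had the largest WT value of the mitotic genes, 0.98 (SE 0.41, edgeR adjusted p = 0.526), with 6.52, 2.60 and 8.06 CPM in WT R300 against 4.02, 2.32 and 2.41 CPM in WT blank. It was high in WT R300 1 and 3, the pair that was near-identical over all genes. With 1 library of each such pair the WT median over all 45 genes was 0.01, and without WT blank 1 it was 0.52. Between the libraries without Xist, 12 of 21 mitotic genes in KO and 7 of 21 in WT were above blank.

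Markers of other cells also differed between libraries of a group. The 8 mesothelial cell and fibroblast markers (Msln, Upk3b, Krt19, Col1a1, Col3a1, Dcn, Lum and Sparc) summed to 250, 567 and 232 CPM in KO R300, 315, 229 and 244 in KO blank, 474, 127 and 971 in WT R300 and 446, 96.8 and 117 in WT blank. The 21 mitotic genes summed to 148.8, 187 and 148.7 CPM in KO R300, 189.6, 198 and 145 in KO blank, 174, 131 and 226 in WT R300 and 188, 166 and 128 in WT blank. Of the 5 libraries with the most of these markers (at least 315 CPM), 4 were among the 5 with the most mitotic transcripts. The exceptions are WT R300 1, and KO blank 2 in its place, with 229 CPM of the markers. For the sum without Mki67 it was also 4 of 5. Both are sums over the same libraries and share their depth and scaling. Of the 8 markers 7 were tested; all 7 were above 0 in KO (median log2 0.41) and in WT (1.17), and edgeR called 0 in each (0 under an unadjusted p of 0.05, and 0 called by DESeq2). None of the 8 was at 0 in every library, and their part in the mitotic values was not tested.

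**Figure D4:**
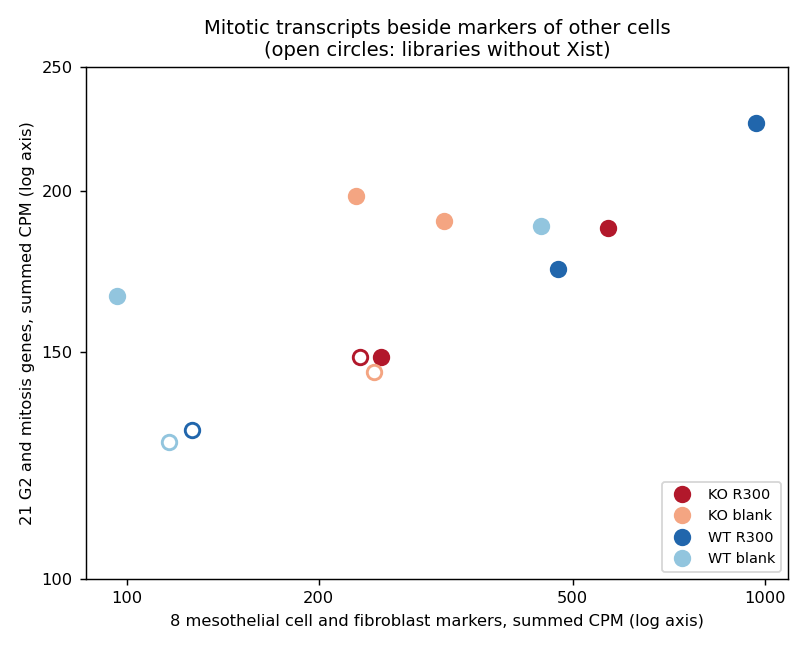
Summed CPM of the 21 G2 and mitosis genes against summed CPM of 8 mesothelial cell and fibroblast markers, both on log axes, 1 point per library; open circles are the libraries without Xist. WT R300 3 lies highest on both axes (971 and 226 CPM), WT blank 3 lowest in mitotic transcripts (117 and 128 CPM), and KO blank 2 has 198 CPM of mitotic transcripts with 229 CPM of the markers.

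In every group, the library without Xist had the lowest sum of the 21 mitotic genes; for the sum of the 20 without Mki67 it was lowest in 1 group, WT R300. It was the lowest library in all 4 groups for 14 of the 45 genes, against 12.2% of all genes tested. Of the mitotic genes 9 were among them (Mki67, Top2a, Ccna2, Ccnb1, Cdc20, Cenpf, Kif11, Birc5 and Ube2c, whose products include cyclins A2 and B1, topoisomerase II and an activator and an E2 enzyme of the anaphase-promoting complex), with Ccnd2, Cdc45, Rrm2, Tyms and Cdkn1a. Values did not overlap at all between the 4 and the 8 libraries for 7 of the 45 genes, against 13.0% of all genes. As a share of 45 this count is near that of all genes. The values without Xist were lower for Mki67, Ccnb1, Ccnd2, Kif11 and Ube2c and higher for Bub1b and Pcna. Bub1b, the spindle checkpoint kinase, was at 12.6 to 15.96 CPM in the 4 and 7.32 to 11.7 CPM in the 8, and Ccnb1 was at 1.22 to 3.15 and 3.28 to 8.93 CPM. The 6 erythroid markers were lowest in the same 4 libraries, at 2.41 to 9.95 CPM against 59.8 to 321 CPM.

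**Figure D5:**
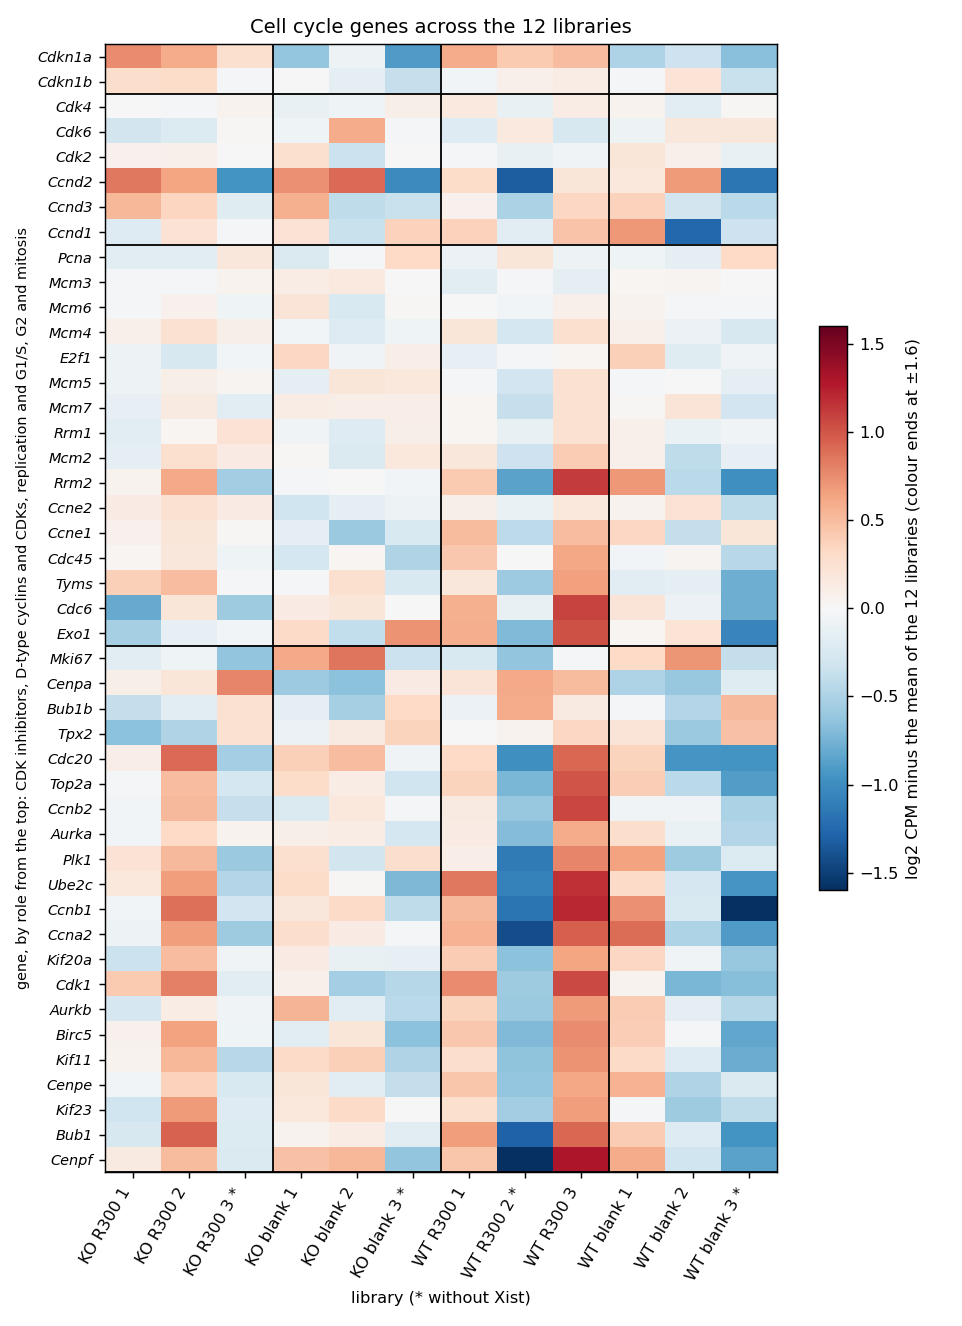
Log2 CPM of each of the 45 genes minus its mean over the 12 libraries, in rows ordered by role and columns by group; asterisks mark the libraries without Xist and the colour scale ends at ±1.6. Cdkn1a separates R300 from blank, while most G2 and mitosis rows are high in WT R300 3 and KO R300 2 and low in WT R300 2 and WT blank 3.

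Between the genotypes, none of the 45 genes was called. In blank cells edgeR called 0 of 45 between KO and WT (0% of all genes), with 0 under an unadjusted p of 0.05 (1.09% of all genes) and 0 called by DESeq2 (0.0242% of all genes). The lowest p belonged to Kif23, a kinesin of the cleavage furrow, at 4.31, 4.71 and 3.82 CPM in KO blank against 3.76, 2.58 and 2.89 CPM in WT blank. It was the only one of the 45 without overlap, against 3.70% of all genes (log2 0.48, edgeR adjusted p = 1). Ccne1 (-0.40) and Cdc20 (0.68), an activator of the anaphase-promoting complex, came next. After R300 edgeR again called 0 of 45 (0% of all genes), with 1, Cdc6, under an unadjusted p of 0.05 (1.96% of all genes) and 0 called by DESeq2 (0.0846% of all genes). In blank cells 33 of 45 log2 differences were above 0 (median 0.08), and after R300 13 of 45 (median -0.07, or -0.35 without WT R300 2). Among all genes tested, the share above 0 was 50.7% in blank cells and 48.6% after R300.

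Other genes of the cell cycle had no call by edgeR either. Of 39 other mitotic genes 0 were called in KO or WT with R300 (0 and 2 under an unadjusted p of 0.05, and 0 by DESeq2); 23 were above 0 in KO (median 0.04) and 31 in WT (0.30). Of 41 other replication genes 0 were called (2 in each genotype under an unadjusted p of 0.05, and 0 by DESeq2); 23 were above 0 in KO (median 0.02) and 31 in WT (0.14). Of 18 E2F, pocket protein and DREAM factors 0 were called (3 in each genotype under an unadjusted p of 0.05; DESeq2 called 0 in KO and 1 in WT), with medians of -0.03 in KO and -0.06 in WT. Of 21 further CDK inhibitors and regulators 0 were called (1 in each genotype under an unadjusted p of 0.05, and 0 by DESeq2), with medians of 0.05 in KO and 0.08 in WT. For these lists the shares of all genes were 8.78% in KO and 8.72% in WT under an unadjusted p of 0.05. They were 0.834% and 0.623% for edgeR calls, and 2.84% and 2.33% for DESeq2 calls. With the term for the libraries without Xist, Ckap2l, a spindle protein, was called in WT (log2 0.86 without the term, adjusted p = 0.0327 with it).

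Of 11 growth and self-renewal regulators of macrophages edgeR called 0. In each genotype 5 had an unadjusted p under 0.05 (8.78% of all genes in KO and 8.72% in WT) and DESeq2 called 2 (2.84% and 2.33%), with medians of 0.45 in KO and 0.49 in WT. Klf4, a factor of monocyte differentiation, was at 169, 141 and 170 CPM in KO R300, against 64.7, 114 and 61.4 CPM in KO blank. In WT R300 it was at 161, 177 and 148 CPM, against 53.1, 96.4 and 60.5 CPM in WT blank. The groups do not overlap, and the WT difference of 1.21 on the log2 scale had an edgeR adjusted p of 0.0882. Csf2rb, the shared receptor chain for GM-CSF and IL-3, was at 1887, 1730 and 1617 CPM in KO R300 against 1176, 1335 and 1241 in KO blank, and at 1971, 1875 and 1954 CPM in WT R300 against 1261, 1360 and 1485 in WT blank. Its log2 difference was 0.48 in KO (edgeR adjusted p = 0.0776) and 0.50 in WT (0.0863), and with the term for the libraries without Xist it was called in both (0.0246 and 0.0252).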

How the data were processed

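Poly(A) RNA of 12 peritoneal macrophage samples was sequenced with a NEBNext Ultra kit, per the labels' protocols. FastQC 0.12.1, fastp 0.23.4, HISAT2, featureCounts 2.0.3 and DESeq2 1.42.0 are named with the mm10 genome, per the submitters' processing notes. The authors deposited raw counts by gene symbol, as a single table with 35050 rows whose columns were identical to the 12 sample files. The 102 rows without a symbol (0.0233% to 0.0328% of counts) were left out.

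Counts were tested with edgeR 4.0.16 in R 4.3.3 (TMM, filterByExpr, robust quasi-likelihood fit, all 12 libraries, 1 mean per group). P-values were adjusted over 16546 genes by Benjamini-Hochberg, with calls at an adjusted p under 0.05. The common coefficient of biological variation was 0.267. With 3 libraries in each group, the smallest exact permutation p (two-sided) for 1 value is 0.1. The 5 comparisons share groups: R300 with blank in each genotype, KO with WT in each state, and the difference of responses. The fit was tested on simulated data.

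Alternatives were DESeq2, RLE size factors, library totals, no filter, fits of only the groups compared, a block for the replicate number (replicate block), a term for the libraries without Xist, only the 8 libraries with Xist, 1 library of each near-identical pair and each library left out. The average over genotypes, with and without the Xist term, and a replicate block within blank groups were added after seeing the data. The labels give groups the same replicate numbers and do not say that a number marks a shared animal or day. Same-numbered KO and WT blank libraries deviated together (correlations 0.51, 0.53 and 0.56), which counts as pairing there; in the other comparisons at least 1 pair was under 0.1. The labels call the libraries biological replicates.

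The 45 genes and the other lists were chosen with earlier results of these data known. Genes are named with a fold change where they are called or among the 3 lowest p of a comparison. Mki67, Lin54 and Cdk2 after R300 were added after their values were seen. So were Lyz2, Cd14, Plk3, Klf4, Csf2rb and Ckap2l, which edgeR called only with the Xist term. Levels between genes are per kb of exon, from GENCODE M21 (GRCm38). Every base in an exon of any annotated transcript counts towards the length, whether or not these cells use that transcript. Of the 45 genes 7 overlap others over at least 10% of their exonic bases (Cdk4, Ccna2, Ccnd1, Ccne2, Kif20a, Ube2c and Mcm7). How such reads were counted is not given in the sources used here.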

Additional observations from a re-analysis of the deposited data

How the results depend on the processing

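Each log2 value of the 4 genes followed (Cdkn1a, Cenpa, Mki67 and Cdk1 or Cdkn1b) kept its direction in both R300 comparisons under every alternative run, while calls near the threshold moved. In KO, all-gene calls numbered 138 and went to 442 with DESeq2, 43 with only the groups compared, 450 with the Xist term, 290 among the 8 Xist libraries, 34 with 1 library of each near-identical pair and 45 to 171 with a library left out. In WT, the 103 went to 363, 41, 347, 242, 28 and 32 to 135 in the same order. Averaged over genotypes the count was 603, or 1492 with the Xist term. Of the 45 genes, the 1 called in KO became 0 with library totals, with only the groups compared and with 1 library of each pair, 3 with the Xist term and 0 to 1 with a library left out (1 without KO blank 2 or KO R300 3); the 0 called in WT became 2 with DESeq2, 1 without a filter, 1 with only the groups compared, 2 with the Xist term, 1 among the 8 Xist libraries and 0 to 1 with a library left out (1 without KO blank 2 or KO blank 3). Averaged over genotypes 2 were called, or 3 with the Xist term. Cdkn1a in KO had an adjusted p of 0.0509 with library totals, 0.218 with only the groups compared, and 0.00945 to 0.203 with a library left out.

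With the replicate block 1 was called in KO (Cdkn1a, adjusted p = 0.0260) and 2 in WT (Cdkn1a, 0.0362, and Cenpa, 0.0490). The pairing seen between the blank groups changed no call there, with 0 called with the block. Between genotypes, where nothing was called in blank cells, DESeq2 called 4 genes, no filter 1 and the Xist term 1; after R300, DESeq2 called 14 and no filter 1.

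The genotype difference of Cdkn1a lay near 0 and turned sign. In blank cells it became 0.00112 with library totals, 0.0084 without a filter, 0.091 among the 8 Xist libraries and 5.26e-06 with 1 library of each pair, and -0.27 to 0.18 with a library left out. After R300 it ran from -0.072 to 0.18, and the difference of responses from -0.13 to 0.31, with a library left out. The cause was not tested. Cdc6, Exo1, Bub1 and Cenpf had the lowest counts in a library, which limits their values.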
